A study of Mus musculus with 8 samples.

Results

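The 37 genes described here build and organise the epithelial cell: cadherins and catenins of the adherens junction, desmosomal proteins, claudins and other tight junction proteins, keratins and Epcam, polarity proteins, and regulators of epithelial gene expression. They were chosen by name from what they are known to do, though with earlier results of these data known. All 37 were found among the 22173 gene symbols of the tables. By role they were 3 classical cadherins, 4 catenins, 4 further desmosomal genes, 6 claudins, 6 other tight junction genes, 5 genes of the keratin and Epcam group, 5 polarity genes and 4 regulators. The study asked how the GPER1 agonist G-1 acts on macrophages and, through them, on tubular epithelial cells (TECs). RNA was sequenced from 8 libraries, 1 per condition, each made of 3 pooled samples, so a pair of libraries has no replicate check.

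The TEC+G-1 and TEC libraries came from primary tubular cells of mouse kidney, obtained by collagenase digestion and cultured for 24 h in trans-wells with M1 macrophages. These macrophages had been pretreated with 10 μmol/L G-1 (TEC+G-1) or not (TEC) and were rinsed before the co-culture. G-1 was thus given to the macrophages and not to the TECs, and TECs cultured without macrophages were not analysed here. The macrophages were bone marrow-derived macrophages (BMDMs) of wild-type mice grown for 7 days. M1+G-1 and M1 macrophages were stimulated for 48 h with IFN-γ (20 ng/ml) together with LPS (100 ng/ml), M2+G-1 and M2 macrophages likewise with IL-4 (20 ng/ml), and M0+G-1 and M0 macrophages with neither. The groups marked +G-1 also had 10 μmol/L G-1, in M0+G-1 for 48 h. No such time is stated for M0, so whether M0 was cultured as long as the other macrophages is not known. The paper lists the sequenced RNA in sets by pair, with the M0, M1, M2 and TEC pairs each a set of its own. Contrasts of state and of cell type therefore also run between sets, and effects of the set cannot be told apart from them. Whether the sets were handled separately is not stated. The values were whole-number read counts per gene, and the counts of a library summed to between 35027179 and 40671596. Levels are given as CPM, the count scaled to the library total, and, between genes, as CPM per kb of transcript.

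In a tubule, E-cadherin on neighbouring cells pairs through its outer domains and is tied to actin by β- and α-catenin, while p120-catenin stabilises it at the membrane. Desmosomes tie the keratin filaments of neighbouring cells together through desmogleins, desmocollins, plakoglobin, plakophilins and desmoplakin. Claudins and occludin form the strands of the tight junction, which sets how leaky the epithelium is, and the ZO and cingulin proteins anchor these strands. The CRB, PAR and SCRIB protein groups separate the apical from the basolateral membrane. Splicing factors of the ESRP family and the transcription factors GRHL2 and OVOL1 maintain the epithelial programme, whereas the repressors of the SNAI and ZEB families, which bind E-box sequences, switch parts of it off.

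Because the members were read at high levels together in the TECs, their upstream sequences were searched for the letters bound by those repressors. The upstream sequences of 5 of the genes are shown. All 5 hold a match to a motif searched for, and no sequence without a match is shown. RefSeq promoters of GRCm38.p6 were matched for 25 of the 37 genes (not Cdh1, Cdh2, Ctnna1, Dsg2, Dsc2, Pkp2, Krt19, Llgl2, Esrp1, Esrp2, Grhl2 and Ovol1), and the 250 bases before each start were searched on both strands. The E-box CAGGTG was found before 14 of the 25 genes (56%), against 19.4% of all 27025 genes with a promoter in the table. Several genes have more than one listed start, and by window the shares were 45.7% of 35 member windows and 17.2% of 32851 windows in all. AACCNGTT, the form of site that grainyhead factors such as GRHL2 bind, was present before 1 member, Cgn (4%), and before 2% of all genes. In the sequences that follow, capitals mark CAGGTG or its reverse complement in the first 4 and the reverse complement of the grainyhead form in Cgn.
Cldn4, upstream of the start, chr5:134946935-134947184 (minus strand): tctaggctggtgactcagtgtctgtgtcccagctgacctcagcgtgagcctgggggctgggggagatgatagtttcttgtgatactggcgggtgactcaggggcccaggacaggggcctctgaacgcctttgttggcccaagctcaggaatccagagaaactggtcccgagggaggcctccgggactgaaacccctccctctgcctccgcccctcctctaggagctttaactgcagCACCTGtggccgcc
Krt8, upstream of the start, chr15:102004343-102004592 (minus strand): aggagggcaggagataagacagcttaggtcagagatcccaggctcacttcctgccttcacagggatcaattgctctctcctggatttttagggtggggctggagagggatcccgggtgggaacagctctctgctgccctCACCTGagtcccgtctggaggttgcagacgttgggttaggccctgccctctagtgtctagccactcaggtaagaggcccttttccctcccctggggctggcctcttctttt
Krt18, upstream of the start, chr15:102027966-102028215 (plus strand): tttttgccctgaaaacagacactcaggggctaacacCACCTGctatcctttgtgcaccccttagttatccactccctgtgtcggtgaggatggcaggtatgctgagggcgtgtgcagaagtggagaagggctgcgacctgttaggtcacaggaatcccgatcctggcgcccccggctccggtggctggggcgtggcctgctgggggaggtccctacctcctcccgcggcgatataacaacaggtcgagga
Epcam, upstream of the start, chr17:87635729-87635978 (plus strand): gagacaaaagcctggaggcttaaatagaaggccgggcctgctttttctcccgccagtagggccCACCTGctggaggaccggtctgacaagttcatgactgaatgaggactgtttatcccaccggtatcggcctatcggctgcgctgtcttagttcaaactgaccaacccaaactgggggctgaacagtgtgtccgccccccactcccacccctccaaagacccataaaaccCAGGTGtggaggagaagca
Cgn, upstream of the start, chr3:94786483-94786732 (minus strand): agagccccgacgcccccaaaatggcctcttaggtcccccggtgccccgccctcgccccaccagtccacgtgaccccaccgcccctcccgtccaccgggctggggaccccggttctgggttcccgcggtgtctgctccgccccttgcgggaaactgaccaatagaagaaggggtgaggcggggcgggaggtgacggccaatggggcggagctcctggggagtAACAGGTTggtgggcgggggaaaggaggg
The E-box of Cldn4 began 14 bases before the start and the second E-box of Epcam 19 bases before it, whereas those of Krt8 and Krt18 lay 111 and 214 bases upstream. A match of letters is a description of the sequence and was not tested as a binding site.

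The labels were checked against defining markers. Of Krt8, Krt18, Cdh1 and Epcam the lowest value in a TEC library was 395 CPM (Epcam in TEC), and of Adgre1, Csf1r, Ptprc and Spi1 the lowest in a macrophage library was 10737 counts (Spi1 in M1). The 30 macrophage markers summed to 220.7 CPM in TEC+G-1 and 387.3 CPM in TEC, with 29 of the 30 at 20 counts or more in each, against 29420 to 74780 CPM in the macrophage libraries. These sums were 0.75% of that in M1+G-1 and 1.02% of that in M1. Fibroblast and matrix markers summed to 7925 CPM in TEC+G-1 and 10410 CPM in TEC, led by fibronectin (Fn1), and endothelial markers to 214.7 and 195.1 CPM. Of 18 markers of the proximal tubule, 10 had at least 20 counts in each TEC library, among them Slc4a4 with 2416 counts in TEC+G-1 and 3342 in TEC, Mme with 1406 and 1602 and Aqp1 with 569 and 415, while others, such as Slc34a1 and Kap, had 0 in both. Of 14 tested against the macrophages 7 were called higher in TECs and 1 lower. Cdh16, a cadherin of the kidney tubule, had 21237 and 21934 counts. Among the macrophage libraries, M1+G-1 and M1 held 477 and 405 counts of the stromal gene Dcn, against at most 1 in the other 4, and M2+G-1 and M2 held 153 and 208 counts of the proximal tubule gene Kap, against 0 in the other 4 and in both TEC libraries. These traces are given again beside the members they touch.

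Together the members took 1.57% of all counts in TEC+G-1 and 1.51% in TEC, against 0.0572% to 0.111% in the 6 macrophage libraries. All 37 were detected in both TEC libraries, and 23 reached 100 CPM in both. In the macrophage libraries between 11 and 18 members had 0 counts, and 21 members stayed under 10 counts in each of them. For each of the 37 genes both TEC libraries lay above all 6 macrophage libraries, as did 42.9% of all genes tested. The cell types were then compared with edgeR's quasi-likelihood test over the 8 libraries, 2 of TECs against 6 of macrophages, with a call at a Benjamini-Hochberg adjusted p of 0.05 and a fold of at least 2. Of the 37 members, 34 were called higher in TECs and 0 lower, against 24.4% and 15.5% of the 13897 genes tested, and the median log2 difference was 10.13 over the members and 0.05 over all genes. The 37 passed the filter on low counts, most of them through the TEC libraries alone, since 12 members had at least 10 counts in 2 or more macrophage libraries, so the count of calls describes these genes and is no evidence of its own. The libraries of a cell type differ in their conditions, so the spread behind these p-values includes the effects of the stimuli and of G-1. In bulk RNA, more cells that carry a transcript and more transcript per cell cannot be told apart.

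**Figure D1:**
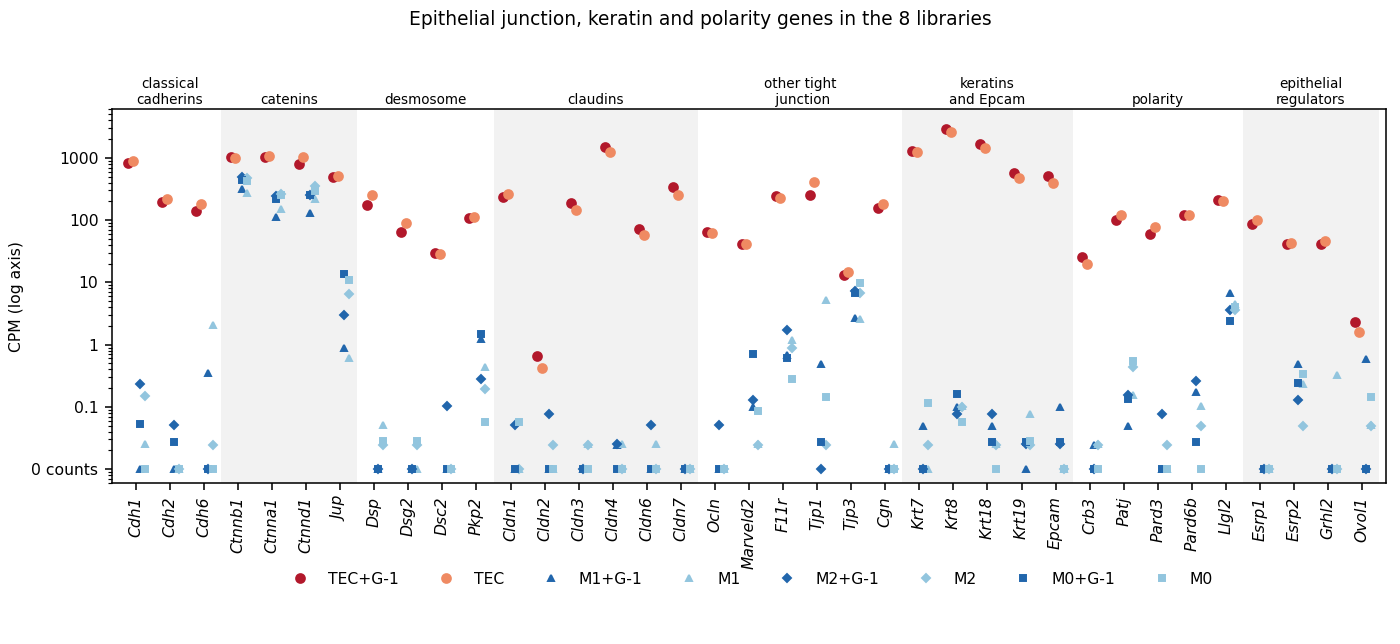
Level of each of the 37 genes in CPM (log axis, with 0 counts drawn at the bottom), grouped by role, with a point per library: TEC+G-1 and TEC in red and orange, macrophages with G-1 in dark blue and without in light blue. Every gene lies higher in both TEC libraries than in the 6 macrophage libraries, with the narrowest gaps for Ctnnb1, Ctnna1, Ctnnd1, Tjp3, Ovol1 and Cldn2.

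Cdh1, which encodes E-cadherin, had 831 CPM in TEC+G-1 and 879 CPM in TEC, against 0 to 0.233 CPM in the macrophage libraries (log2 difference 13.04, SE 0.934, adjusted p = 2.09e-05, edgeR). Its highest macrophage values were 9 counts in M2+G-1 and 6 in M2, the libraries with Kap, and 0 to 2 in the other 4. Cdh2, which encodes N-cadherin, had 199 and 217 CPM in TEC+G-1 and TEC and 3 counts in all macrophage libraries together. Cdh6, the kidney cadherin K-cadherin, had 142 and 184 CPM, against 0 to 2.09 CPM in macrophages. Per length, Cdh1 made up 76.2% of the 3 cadherins in TEC+G-1 and 74.7% in TEC, Cdh2 16.7% and 16.8%, and Cdh6 7.06% and 8.47%. Bulk counts do not say whether the same cells held all 3 cadherins. The endothelial cadherin Cdh5 (888 and 1069 counts in TEC+G-1 and TEC) and the fibroblast gene Col1a1 (2378 and 3246) were read in the same libraries, and the part of such cells in the Cdh2 value was not tested.

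The catenins stood apart, because macrophages carried most of them as well. Ctnnb1, which encodes β-catenin, a junction protein that also acts in Wnt signalling, had 1021 and 998 CPM in TEC+G-1 and TEC, against 274 to 491 CPM in macrophages. Its log2 difference of 0.93 (SE 0.257, adjusted p = 0.0185, edgeR) was under 2-fold, so it was not called. Ctnna1 (αE-catenin) had 1019 and 1078 CPM in TEC+G-1 and TEC, against 111 to 260 CPM in macrophages (log2 1.98, SE 0.277, adjusted p = 0.000718). Ctnnd1 (p120-catenin, which stabilises cadherins at the membrane) had 804 and 1023 CPM, against 131 to 351 CPM (log2 1.49, SE 0.284, adjusted p = 0.00335), and without the TEC library its adjusted p was 0.0509. Of the 50-base stretches of Ctnnd1, 73% also occur in the overlapping gene model Gm28635 on the same strand, so its count is uncertain. Jup, which encodes plakoglobin, the catenin shared with desmosomes, differed far more, with 485 and 512 CPM in TEC+G-1 and TEC against 0.612 to 13.7 CPM in macrophages (log2 6.01, SE 0.979, adjusted p = 0.00158). The spread among macrophages for Jup followed their state and is described further on.

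All 4 of the other desmosomal genes were called higher in TECs. Dsp, which encodes desmoplakin, the link to keratin filaments, had 178 CPM in TEC+G-1 and 255 CPM in TEC, against at most 2 counts in any macrophage library (log2 12.99, SE 0.634, adjusted p = 3.5e-06). The adhesive desmosomal cadherin Dsg2 had 63.7 and 89.1 CPM and its partner Dsc2 29.6 and 28.2 CPM in TEC+G-1 and TEC, and in macrophages they reached 1 and 4 counts. Pkp2 (plakophilin 2, of the desmosomal plaque) had the highest level per length of the 4, at 37 CPM per kb in TEC+G-1 and 38.9 in TEC. Pkp2 had 108 and 114 CPM in TEC+G-1 and TEC, against 0.0571 to 1.46 CPM in macrophages (log2 6.99, SE 0.963, adjusted p = 0.000667). Its macrophage values, unlike those of Dsp and Dsg2, were well above 0 in several libraries.

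The claudins were dominated by Cldn4, a claudin of the distal nephron and collecting duct. It had 1525 CPM in TEC+G-1 and 1261 CPM in TEC, against 0 or 1 count in each macrophage library (log2 16.01, SE 0.656, adjusted p = 2.02e-06, edgeR). Per length it held 61.7% of the 6 claudins in TEC+G-1 and 62.1% in TEC, and ranked 61 among all genes in both. Cldn7 came next with 18.8% and 17.2%, and Cldn3 with 10.9% and 10.3%. Cldn7 had 0 counts in all 6 macrophage libraries and was at least 22913-fold higher in TECs, with a floor of 3 counts over the 6 libraries. Cldn3 lies 39.3 kb from Cldn4 on chromosome 5, at 134986214 to 134987476 against 134945123 to 134946934 (RefSeq, GRCm38.p6), and had 186 and 145 CPM in TEC+G-1 and TEC.

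The remaining claudins were lower. Cldn1, a sealing claudin, had 239 and 259 CPM in TEC+G-1 and TEC, and Cldn6, a claudin of embryonic epithelia, 71.3 and 58.4 CPM. Cldn2, the pore-forming claudin of the proximal tubule, was close to absent, with 24 counts in TEC+G-1 and 16 in TEC, against 0 to 3 in the macrophage libraries. It was called higher in TECs (log2 4.41, SE 1.04, adjusted p = 0.00888), but not once either TEC library was left out (adjusted p = 0.0591 without TEC and 0.097 without TEC+G-1). Thus 5 of the 6 claudins were read at over 50 CPM in both TEC libraries, and Cldn2 was not among them.

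**Figure D2:**
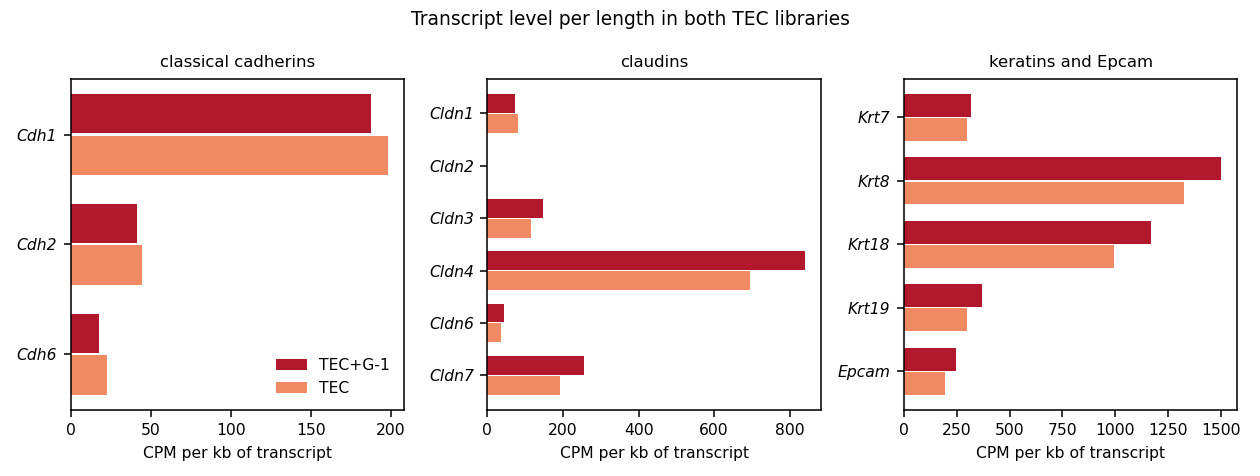
Level per length (CPM per kb of transcript) of the cadherins, the claudins and the keratins with Epcam, TEC+G-1 in dark red above TEC in orange. Cdh1, Cldn4, and Krt8 with Krt18 lead their groups in both libraries, and the bars of Cldn2, at 0.217 and 0.137 CPM per kb, are too short to see.

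Of the other tight junction genes, F11r, which encodes the adhesion molecule JAM-A, had the highest level per length, 98.3 CPM per kb in TEC+G-1 and 90.8 in TEC. It had 247 and 229 CPM there, against 0.285 to 1.73 CPM in macrophages (log2 7.67, SE 0.498, adjusted p = 1.25e-05). Tjp1, which encodes ZO-1, the scaffold between strands and actin, had 256 CPM in TEC+G-1 and 405 CPM in TEC, against 0 to 5.15 CPM in macrophages (log2 7.91, SE 1.81, adjusted p = 0.00785). Among macrophages Tjp1 spread from 0 counts in M2+G-1 to 202 in M1. Ocln (occludin) and Marveld2 (tricellulin, of the corners where 3 cells meet) lie 43.2 kb apart on chromosome 13 and had 64.3 and 61.4 CPM, and 41.7 and 41.4 CPM, in TEC+G-1 and TEC. Cgn (cingulin, a cytoplasmic plaque protein) had 157 and 181 CPM in TEC+G-1 and TEC and a total of 1 count in macrophages, and 20.1% of its 50-base stretches occur in the gene model BC021767 as well. Tjp3 (ZO-3) was the exception, with 13.1 and 14.9 CPM in TEC+G-1 and TEC against 2.55 to 9.85 CPM in macrophages (log2 0.87, SE 0.468, adjusted p = 0.166), and its exons overlap those of Apba3 on the opposite strand, so that without strand information reads of the 2 genes cannot be told apart. The same limit holds for Esrp2, which overlaps Nfatc3, and for Ovol1, Grhl2, Cldn3, Dsp, Dsg2 and Krt8, which overlap other annotated genes on the opposite strand.

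Krt8 and Krt18 had the highest levels of the 37 members, in CPM and per length. Krt8, a type II keratin of simple epithelia, had 2941 CPM in TEC+G-1 and 2592 CPM in TEC, against 2 to 6 counts in each macrophage library (log2 14.30, SE 0.455, adjusted p = 1.74e-06). Its type I partner Krt18, whose gene lies 23.9 kb from Krt8 on chromosome 15, had 1679 and 1430 CPM in TEC+G-1 and TEC (log2 14.94, SE 0.600, adjusted p = 2.02e-06). Per length Krt8 ranked 19 among all genes in TEC+G-1 and 16 in TEC, and Krt18 ranked 26 and 29. Some 26.9% of the 50-base stretches of Krt8 are shared with Krt8-ps, a processed copy, so part of its reads may be placed there or lost. Krt7, a keratin of ductal epithelia, had 1290 and 1229 CPM, and Krt19 580.1 and 470 CPM, in TEC+G-1 and TEC. Epcam, an adhesion molecule of epithelia, had 504 and 395 CPM in TEC+G-1 and TEC, against 0 to 4 counts in macrophages (log2 13.50, SE 0.836, adjusted p = 1.03e-05).

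All 5 polarity genes were called higher in TECs. Llgl2, which encodes a basolateral polarity protein, had the highest level per length, 58.8 CPM per kb in TEC+G-1 and 58.0 in TEC. It had 209 and 206 CPM there and 2.43 to 6.81 CPM in macrophages (log2 5.19, SE 0.398, adjusted p = 2.97e-05). Pard6b, of the PAR complex, had 120 and 119 CPM in TEC+G-1 and TEC, Patj, of the Crumbs complex, 99.6 and 122 CPM, Pard3, the PAR3 scaffold, 60.4 and 76.3 CPM, and Crb3, the Crumbs protein of epithelia, 25.2 and 19.5 CPM. In macrophages Pard3 and Crb3 had at most 3 counts in a library, Pard6b at most 10 and Patj at most 19.

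Of the regulators, Esrp1, an epithelial splicing factor, had the highest level per length, with 22.3 CPM per kb in TEC+G-1 and 25.6 in TEC. It had 86.2 and 98.9 CPM in TEC+G-1 and TEC, and 0 counts in all macrophage libraries, at least 7135-fold higher in TECs with the same floor. Its relative Esrp2 had 42 and 43.4 CPM in TEC+G-1 and TEC, against 0.0492 to 0.497 CPM in macrophages, with the overlap with Nfatc3 named above (log2 6.94, SE 0.691, adjusted p = 0.00012). Grhl2 had 41.9 and 47.1 CPM in TEC+G-1 and TEC, and 13 counts in the M1 library, against 0 in the other 5 macrophage libraries (log2 9.12, SE 1.43, adjusted p = 0.00128). Ovol1 had 85 and 62 counts in TEC+G-1 and TEC, against 24 counts in M1+G-1 and 0 to 5 in the other macrophage libraries, and was not called (log2 3.23, SE 1.39, adjusted p = 0.0911). Without the M1+G-1 library its adjusted p was 0.00778.

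Related genes are given as counts by list, beside 24.4% of all genes called higher and 15.5% lower. Of 107 tested in these lists, 53 had at least 10 counts in 2 or more macrophage libraries, and the others passed the filter through the TEC libraries, so the counts are a description only. Called higher and lower were 5 and 0 of 5 other claudins tested, 13 and 0 of 17 other tight junction genes, 16 and 0 of 19 other adherens junction genes, 6 and 0 of 10 other desmosome and plakin genes, and 5 and 0 of 6 other keratins. Of 20 other polarity genes 11 were higher and 1 lower, the small GTPase Cdc42 (22297 and 20594 counts in TEC+G-1 and TEC, against 29616 to 43464 in macrophages, log2 difference -1.09, adjusted p = 0.0147). Of 20 other epithelial regulators 18 were higher and 1, Rbm47, lower, with Pax2, a transcription factor of the renal epithelium, at 1814 and 2179 counts in TEC+G-1 and TEC and 0 in all macrophage libraries. Of 10 transcription factors known for switching off epithelial genes, 8 were called higher in TECs and 1 lower. Only 3 of the 10 had at least 10 counts in 2 or more macrophage libraries. A call as higher thus does not mean a high level in TECs. Summed, the 10 had 100.9 CPM in TEC+G-1 and 125.2 CPM in TEC, less than the 166.4 to 684.9 CPM of the macrophage libraries. Most of the macrophage sums came from Zeb2 and Tcf4, with 490 and 192.9 CPM in M0 and 143.5 and 17.92 CPM in M1+G-1. The order of the sums thus describes these genes and not the list as a whole. Twist2 had 410 and 378 counts in TEC+G-1 and TEC and 0 in macrophages, whereas Zeb2 had 1068 and 1738 counts in TEC+G-1 and TEC, against 5773 to 21789 in macrophages (log2 difference -3.92, adjusted p = 0.000643, edgeR). Fibroblast and matrix markers, listed above, were read in the same TEC libraries, and their part in the Twist2 values was not tested.

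Between the TEC libraries, no member reached 2-fold in either direction. Of the 37 members, all of them at 20 counts or more in the library with more reads, 0 were at least 2-fold higher in TEC+G-1 and 0 at least 2-fold lower, against 1.39% and 2.82% of 12992 measured genes. Folds here are TEC+G-1 over TEC after TMM scaling within the pair, with an exact binomial 95% interval that covers counting error only and with no test. The median log2 fold was -0.002 over the members and 0.01 over all genes, and 17 members lay above 0 and 20 below. At a fold of 1.5, 1 member was higher (Cldn2) and 1 lower (Tjp1), against 4.66% and 8.1% of all genes. The counting interval lay above 1 for 12 members and under 1 for 17, which at these depths says nothing about the spread between samples.

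Nearest to the 2-fold line on the lower side was Tjp1, with 9311 counts in TEC+G-1 and 15558 in TEC (log2 fold -0.67, interval 0.612 to 0.645 as a fold). Dsp followed with 6466 and 9812 counts (-0.53, 0.670 to 0.714) and Dsg2 with 2315 and 3424 counts (-0.49, 0.673 to 0.749). On the higher side were Cldn2 with 24 and 16 counts (0.66, 0.803 to 3.17), Ovol1 with 85 and 62 (0.53, 1.03 to 2.03) and Cldn7 with 12411 and 9853 (0.40, 1.29 to 1.36). The interval of Cldn2 includes equality. Cdh1 had 30184 counts in TEC+G-1 and 33775 in TEC, a fold of 0.938 (0.924 to 0.953), and Krt8 106817 and 99651 counts, a fold of 1.13 (1.12 to 1.14).

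By role, the median log2 folds were 0.31 for the claudins, 0.22 for the keratins with Epcam, -0.29 for the desmosomal genes, -0.13 for the cadherins, -0.12 for the regulators, -0.10 for the other tight junction genes and -0.09 for the catenins, and the polarity genes were at 0. This order ran with transcript length. All 9 members with transcripts under 2100 bases lay above 0, at 0.171 to 0.403, and all 7 over 5500 bases lay below 0, at -0.67 to -0.299, while of the 21 in between 8 lay above and 13 below. The limits of 2100 and 5500 bases were chosen after the values were seen. The same relation held over all genes of the pair: the shortest quintile had a median log2 fold of 0.31 and the longest -0.34, and the Spearman correlation of fold with length was -0.594 over 12735 genes and -0.845 over the 37 members, as a description over genes that share both libraries. With the running median of all genes over length and GC content subtracted, the medians of the short, middle and long members were 0.065, 0.031 and -0.039, and those of the claudins, keratins and desmosomal genes 0.10, 0.07 and -0.06. After subtraction 34 of the 37 members lay within 0.25 of 0 on the log2 scale, the others being Tjp1 at -0.287, Ovol1 at 0.509 and Cldn2 at 0.639. Dsp, with the longest transcript of the members at 9592 bases, was then at -0.017.

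**Figure D3:**
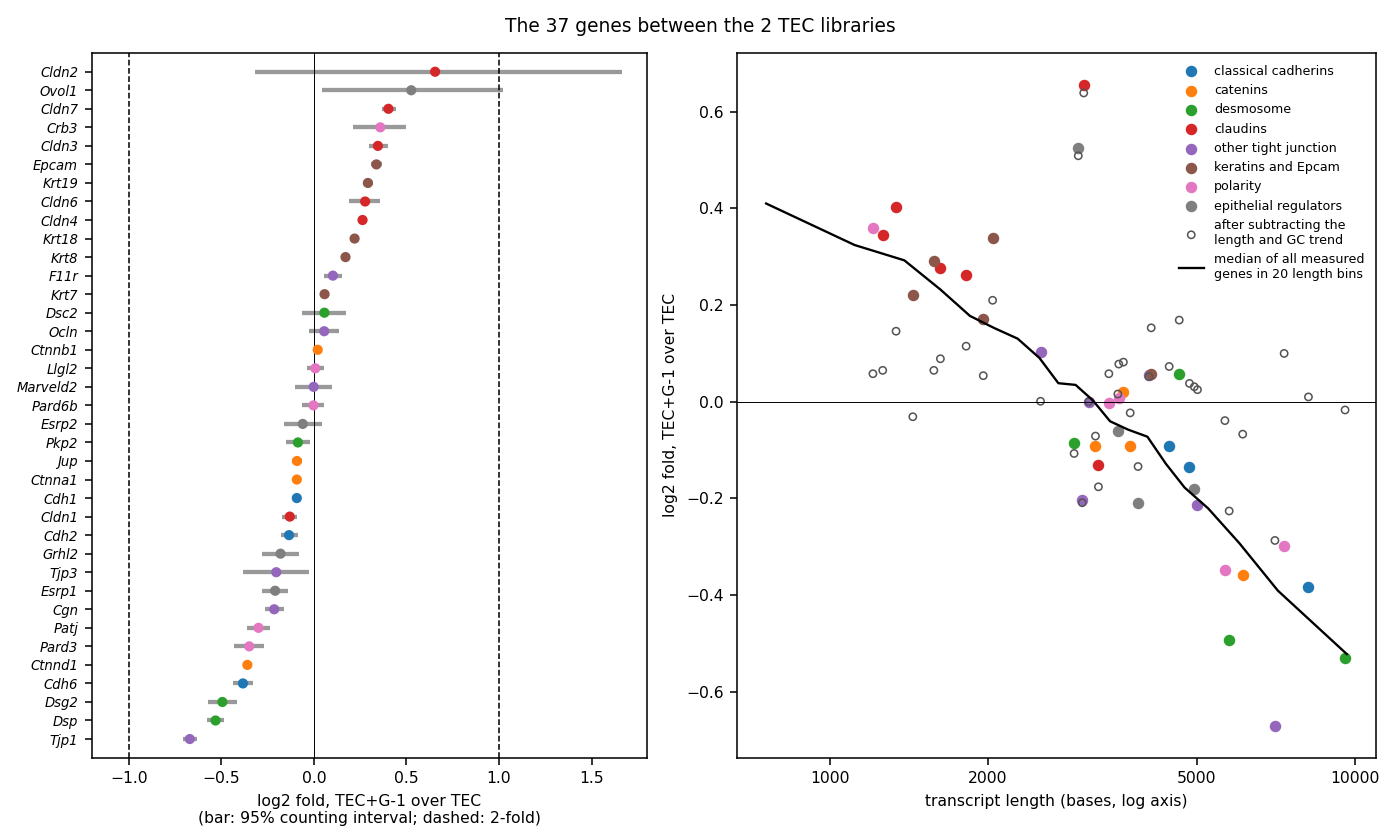
Left, log2 fold of each gene in TEC+G-1 over TEC with its 95% counting interval, colours giving the role and dashed lines 2-fold. Right, the same folds against transcript length (log axis), the median of all measured genes in 20 length bins as a black line, and open circles for the members after the length and GC trend was subtracted; no member reaches 2-fold, and short members lie above and long members below 0 along the line of all genes.

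Few related genes reached 2-fold in this pair. They were Cldn8 and Cldn16, claudins of the distal nephron and the thick ascending limb, with 29 counts in TEC+G-1 against 11 and 13 in TEC, Crb2, a Crumbs protein, with 29 against 11, and Dst, which encodes the plakin dystonin, with 6397 against 13586. Of 8 measured markers of the loop, distal tubule and collecting duct 3 reached it, namely Cldn8, Calb1 (24 counts in TEC+G-1 against 5 in TEC) and Atp6v0d2 (52 against 16), the last of which also had 73 to 21589 counts in the macrophage libraries. No gene of the lists of other tight junction genes (17 measured), adherens junction genes (19), keratins (6), epithelial regulators (20) or repressors of the epithelial state (10) reached it. By contrast 10 of 30 macrophage markers were at least 2-fold lower in TEC+G-1 and 0 higher, among them Adgre1 with 120 counts in TEC+G-1 against 757 in TEC. Of the members, Ctnnb1, Ctnna1, Ctnnd1, Tjp3, Ovol1 and Cldn2 had a highest macrophage CPM within 10-fold of their lowest TEC CPM. The part of macrophage RNA in their folds was not tested.

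Within the macrophages, the catenins Ctnnb1, Ctnna1 and Ctnnd1 had the most reads, with over 100 CPM in all 6 libraries. Jup, Tjp3 and Llgl2 had 0.612 to 13.7 CPM, and in M1 Tjp1, with 202 counts, lay above these 3. A further 7 members reached 20 counts in some macrophage library: Cdh6, Pkp2, Marveld2, F11r, Tjp1, Esrp2 and Ovol1. The effects of state and of G-1 were tested in 1 edgeR model over the 6 libraries, in which 12 members passed the filter on low counts, Cdh6 and Tjp1 through the M1 libraries in which they were high. The 2 contrasts of state share the M0 libraries and run between the sets in which the paper lists the libraries.

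Jup was the member called lower in the M1 libraries than in the M0 libraries, a contrast that also runs between the sets of libraries. It had 36 counts in M1+G-1 and 24 in M1, against 507 in M0+G-1 and 387 in M0, and 117 in M2+G-1 and 266 in M2. Both M1 libraries lay far under all others, and the log2 difference of M1 from M0 was -3.83 (SE 0.609, adjusted p = 0.023, edgeR), as 1 member called lower of the 12 tested, against 4.92% of all genes. Leaving out each library in turn kept this call. Tjp3 had 107 and 100 counts in M1+G-1 and M1, against 252 and 345 in M0+G-1 and M0, with a log2 difference of -1.46 and an adjusted p of 0.0702 with edgeR and 0.0107 with DESeq2. For M2 against M0, 0 members and 0 genes in all were called by edgeR, whereas DESeq2 called 67 genes higher and 106 lower, with 0 members among them. By edgeR 1 member, Jup, had an unadjusted p under 0.05 (adjusted p = 0.692, log2 difference -1.59).

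Among other junction genes in the same contrast, Nectin4, an adhesion protein of adherens junctions, had 39 and 24 counts in M1+G-1 and M1, against 379 and 925 in M0+G-1 and M0 (log2 difference -4.16, adjusted p = 0.0182), and Nectin1 had 7 and 4 against 89 and 186 (-4.43, adjusted p = 0.028). Krt80 had 0 and 28 counts in M1+G-1 and M1, against 99 and 550 in M0+G-1 and M0 (-5.08, adjusted p = 0.0257). In all, 4 of 12 other adherens junction genes and 1 of 2 other keratins tested were called lower in M1, against 4.92% of all genes, and 0 were called higher in these lists. Of 9 other tight junction genes, 17 other polarity genes, 5 other epithelial regulators and 1 other claudin tested, 0 were called in either direction. The plakin gene Dst, with 2470 and 12487 counts in M1+G-1 and M1, against 626 and 446 in M0+G-1 and M0, was called higher (log2 difference 3.45, adjusted p = 0.0377, edgeR).

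Cdh6 and Tjp1 met the call as higher in M1 than in M0 (2 of 12, and 4.97% of all genes). Since both passed the filter only through the M1 libraries, in which they were high, these calls describe the counts and are no evidence of their own. Tjp1 had 20 counts in M1+G-1 and 202 in M1, against 1 and 5 in M0+G-1 and M0 (log2 4.98, SE 0.852). Cdh6 had 14 and 82 counts in M1+G-1 and M1 and 0 in both M0 libraries, at least 29-fold higher with a floor of 3 counts over the 2 libraries. Both lost the call without the M0 library (edgeR adjusted p = 0.125 for Tjp1 and 0.159 for Cdh6) and without the M1 library (0.127 and 0.116), and Cdh6 also without M1+G-1 (0.0528). Grhl2, not tested here, had 13 counts in M1 and 0 in the other macrophage libraries. In the same libraries 3 of 9 fibroblast and matrix markers tested were called higher than in M0 and 0 lower. These 3 likewise passed the filter only through the M1 libraries, so their calls describe the counts and are no evidence of their own. Pdgfrb had 365 and 951 counts in M1+G-1 and M1, against at most 7 in the other 4, Col5a1 17 and 743 against at most 2, and Dcn the counts given above, while Col1a1 had 1 and 0. Col1a2, Col3a1 and Pdgfra had 0 counts in both M1+G-1 and M1. The part of such stromal transcripts in the Cdh6, Tjp1 and Grhl2 values was not tested.

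**Figure D4:**
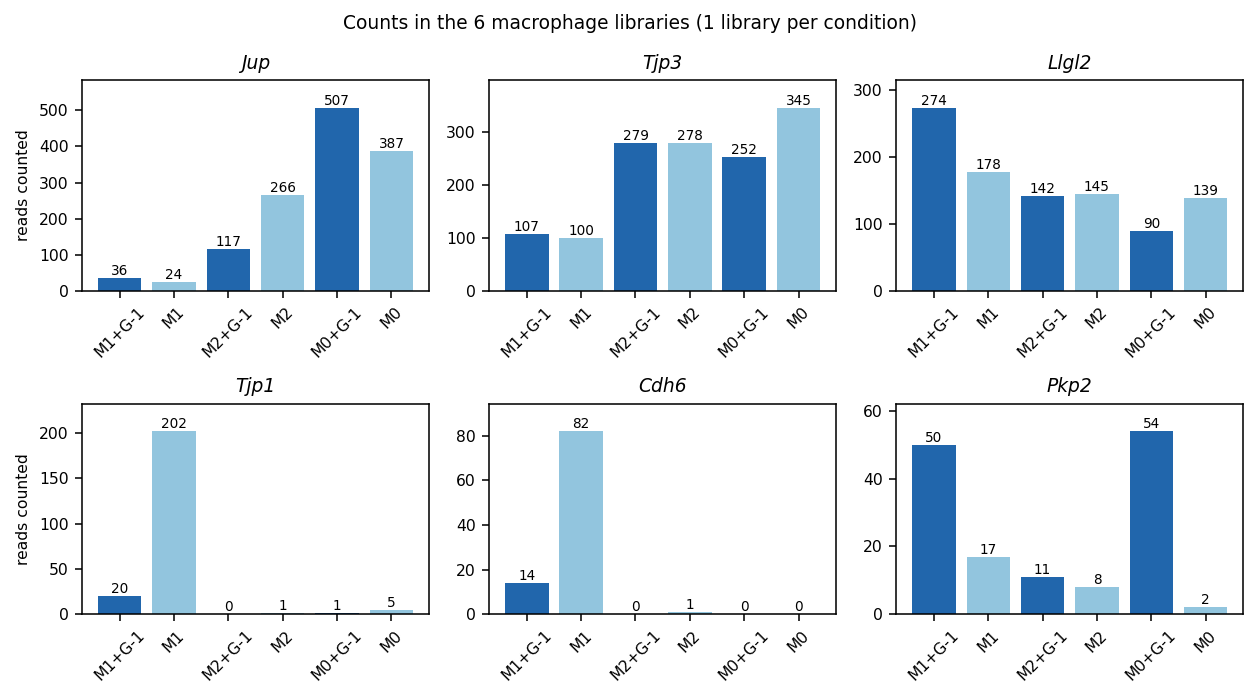
Reads counted for 6 members in the macrophage libraries, with G-1 in dark blue left of without in light blue for each state, each panel on its own linear axis from 0. Jup is lowest in M1+G-1 and M1, at 36 and 24 counts, and Tjp1 and Cdh6 are high in M1 alone or nearly so, at 202 and 82. Pkp2 is higher with G-1 in M0 and M1, while M2+G-1 and M2 have 11 and 8 counts.

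No member was called for G-1 over the states. Across M0, M1 and M2, 0 of the 12 members and 0 of 11921 genes (0%) were called with edgeR in either direction. The count over all genes depended on the M1 pair: without the M1 library 403 genes were called higher and 512 lower, and without M1+G-1 398 and 509, with 0 members in either. At an unadjusted p under 0.05 stood 1 member, Tjp1 (log2 -2.91, SE 0.766, adjusted p = 0.224, edgeR), and DESeq2 called 0 members, with 2 at an unadjusted p under 0.05, but 276 genes higher and 415 lower. Pkp2 had 54, 50 and 11 counts with G-1 in M0, M1 and M2, against 2, 17 and 8 without it. It was higher with G-1 in all 3 pairs, with a log2 difference of 2.12 (SE 0.973) that did not pass the correction (adjusted p = 0.413). Marveld2, which did not pass the filter, had 26, 4 and 5 counts with G-1 and 3, 1 and 1 without it.

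Within the pairs, which have no test, members at 2-fold or more were few and mostly of low count. Those higher with G-1 reached the minimum of 20 counts only in the library with G-1, and Cdh6 only in M1. The numbers of members below therefore describe the counts and are no evidence of their own. In M0, of 9 measured members, 3 were higher with G-1 and 0 lower, against 12.2% and 12.6% of all genes: Pkp2 (28.5-fold, interval 7.51 to 241), Marveld2 (9.14-fold, 2.80 to 47.2) and F11r with 23 counts in M0+G-1 against 10 in M0 (2.43-fold, 1.11 to 5.71). In M1, of 12 measured, 3 were higher and 2 lower, against 9.44% and 12.1% of all genes. The higher ones were Ovol1 with 24 counts in M1+G-1 against 2 in M1 (13.4-fold, 3.34 to 117), Pkp2 (3.30-fold, 1.87 to 6.10) and Esrp2 with 20 against 9 (2.49-fold, 1.08 to 6.21). The lower ones were Tjp1, 9.01-fold (5.68 to 15.1), and Cdh6, 5.23-fold (2.94 to 9.98), both with long transcripts. Folds in this pair also ran with length (median log2 0.72 in the shortest quintile of genes and -0.65 in the longest), and with the length and GC trend subtracted Tjp1 was 5.02-fold and Cdh6 2.80-fold lower, while 557 genes in all were then higher and 925 lower in place of 1044 and 1342. Of the 8 fibroblast and matrix markers measured in this pair, 4 were lower with G-1, Pdgfrb and Col5a1 among them, and 2 were higher, Vim and S100a4. Dcn, with 477 counts in M1+G-1 and 405 in M1, and Acta2, with 56 and 106, reached 2-fold in neither direction. The part of such transcripts in the folds of Tjp1 and Cdh6 was not tested. In M2, of 7 measured, 0 were higher and 1 lower, against 5.95% and 7.78% of all genes: Jup, with 117 counts in M2+G-1 against 266 in M2, was 2.18-fold lower (1.75 to 2.73). Jup was not lower with G-1 in the other states, where its folds were 1.38 in M0 (1.21 to 1.58) and 1.68 in M1 (0.976 to 2.95), and the difference between the states was not tested.

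The main catenins stayed within 1.5-fold in each pair. Ctnnb1 had 16597, 12697 and 19003 counts with G-1 in M0, M1 and M2, against 15036, 10752 and 19293 without it, which after scaling gave folds of 1.16, 1.32 and 1.03. Ctnnd1 had 9289, 5288 and 9984 counts with G-1, against 10283, 8677 and 14293 without it, with folds of 0.953, 0.683 and 0.729. Its log2 difference over the 3 states was -0.39 (SE 0.244), with an adjusted p of 0.552 (edgeR). In the M1 pair the fold of Ctnnd1 turned to a log2 value of 0.155 once the length and GC trend of that pair was subtracted, so its direction there depends on the processing.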

How the data were processed

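The members, the related gene lists and the tests were chosen with earlier results of these data known. The authors sequenced libraries made with the VAHTS Universal V6 kit with paired ends and deposited whole-number read counts per gene symbol. Per the labels the reads refer to mm10, and DESeq2 is named in the submitters' processing notes without a version; the sources used here give no aligner, counter or strand setting. From the counts, CPM was taken on total counts. Transcript lengths, GC content and overlaps came from GENCODE M21 (21097 of 22173 symbols matched), promoters and neighbouring genes from RefSeq on GRCm38.p6.

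TECs and macrophages, and within the 6 macrophage libraries state and G-1, were compared with edgeR 4.0.16 in R 4.3.3 (glmQLFit and glmQLFTest, TMM, filterByExpr, Benjamini-Hochberg over all genes kept, called at an adjusted p of 0.05 and a fold of at least 2). Standard errors were derived from the test statistic. Libraries of other conditions served as replicates, so these p-values measure the spread between libraries and conditions. Pairs differing in G-1 were compared by fold only, where the gene had 20 counts or more in either library, with exact binomial (Clopper-Pearson) 95% intervals for counting error; reads are not independent molecules. A count of 0 was set to a floor of 3 counts. Trends with length and GC content were running medians over 501 genes. The edgeR contrasts of TECs against macrophages, of G-1 and of M1 over M0 were tried on simulated data, as were the pair folds with their intervals. Python 3.11.15, numpy 2.4.6, pandas 2.3.3 and scipy 1.17.1 were used. Alternatives were DESeq2 1.42.0 and its size factors, total counts, other filters and folds, the M1 and TEC libraries alone, G-1 as a further term, each library left out, and the trend subtracted. Genes were named where a member was called, led its role group per length or lay nearest the 2-fold line between the TEC libraries; of related lists, genes at 2-fold between the TEC libraries or with the 3 largest fitted differences. Other names were chosen after their values were seen.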

Additional observations from a re-analysis of the deposited data

How the results depend on the processing

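No paired analysis was possible because each condition has a lone replicate number; the model over the macrophages compared G-1 within the states instead, and a term for G-1 in the TEC comparison gave 34 members higher. The count of members higher in TECs stayed within 1.5 times the main count of 34 under each alternative run: 32 with DESeq2, where Cdh6 and Tjp1 got no adjusted p, 36 with the M1 and TEC libraries alone (Ctnnb1 and Tjp3 then called), and 32 to 35 with a library left out. Between the TEC libraries, a fold of 1.5 gave 1 member higher and 1 lower in place of 0 and 0; other scalings and filters gave 0. With G-1, a minimum of 100 counts gave 0 members higher in M0, and 0 higher and 1 lower in M1. With no filter, 2 members were lower in M0, 4 lower in M1, and 3 higher and 2 lower in M2. Subtracting the length and GC trend in the M1 pair kept 3 members higher and 2 lower. For M1 over M0, leaving out a library gave 0 to 2 members higher and 1 to 2 lower, and DESeq2 called 2 lower. Scaling to total counts moved the median of all genes by -0.156 (log2) in the M0 pair and -0.201 in the M1 pair, and the counts of members called there stayed at 3 higher and 0 lower, and 3 higher and 2 lower. Depth limits the members under 20 counts in macrophages, 26 to 31 of 37 in a library, whose folds within a pair are mostly not measured.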
